A study of Homo sapiens with 8 samples.

Results

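The genes described here are 10 enzymes of sphingolipid and sphingosine 1-phosphate metabolism, SPTLC1, SPTLC2, KDSR, DEGS1, UGCG, ASAH1, SPHK1, SPHK2, SGPP1 and SGPL1, among 19776 genes with a named probe set. They were chosen by pathway around SGPP1 and SPTLC1, whose signal had been seen to be lower in all 4 cell lines after BMI1 knockdown. The knockdown values of these 2 genes therefore chose the group and are given as a description, with no test. A probe set (a group of short probes read as 1 signal) was used where the platform annotation names a single gene for it. Of the 10 enzymes, 9 had such a probe set, 28 in all, and SPHK2 is not analysed here. A filter kept a gene when its mean log2(signal + 8) over all arrays was above the median gene, which corresponds to a signal of about 171, and 8 enzymes passed it with 21 probe sets. SPHK1 lay under the filter.

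Sphingolipids are built in the endoplasmic reticulum. Serine palmitoyltransferase, a complex of SPTLC1 and SPTLC2, joins serine to a fatty acyl chain, KDSR reduces the product, and DEGS1 adds the double bond that makes ceramide. UGCG attaches glucose to ceramide and so opens the route to gangliosides, which are abundant on neuroblastoma cells. In the opposite direction ASAH1 splits ceramide into sphingosine, the kinases SPHK1 and SPHK2 phosphorylate sphingosine, and sphingosine 1-phosphate is either returned to sphingosine by the phosphatase SGPP1 or cleaved irreversibly by the lyase SGPL1. Ceramide is generally regarded as favouring cell death and sphingosine 1-phosphate as favouring survival.

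RNA was measured on 8 arrays from 4 established human neuroblastoma lines, SK-N-BE, SK-N-DZ, SH-SY5Y and NB-39-nu, with 1 control array (shCont) and 1 knockdown array (shBMI1) per line. Control cells received the pLKO.1 control lentivirus, and knockdown cells a pLKO.1 lentivirus with the BMI1 hairpin shBMI1-1. BMI1 is a core subunit of the histone-modifying Polycomb repressive complex 1, and the study asked which genes its loss perturbs. All cells were infected in the presence of polybrene, and RNA was taken 8 to 14 days after infection. Only 1 hairpin was used, the labels do not give the day of each sample, and the replicates of a condition are different lines. Conditions are therefore compared over 4 lines, and a value within a line is the ratio of 1 array to 1 array. The small number of arrays limits the precision.

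Arrays had been scaled by the authors to a trimmed mean signal of 500.0, with medians from 69.9 to 79.8. BMI1, the targeted gene, retained 24.6% of its control signal in NB-39-nu and 39.4% in SK-N-DZ, against 65.0% in SK-N-BE and 65.5% in SH-SY5Y. Its only probe set is also annotated to a read-through transcript with COMMD3. Of 9 neuroblastoma markers, 8 had a probe set and 7 of these were above the table median of 75 on every array, including PHOX2A, HAND2 and DBH. None of the 4 leukocyte, 3 endothelial and 4 epithelial markers measured was above it on every array. On at least 1 array PTPRC, CD3E, PECAM1, CDH5, VWF, EPCAM and KRT19 were above it. Of 6 fibroblast markers, COL1A1 and LUM were above it on every array, and COL3A1, DCN and PDGFRB on some. The summed fibroblast signal ran from 958 to 6170 on control arrays and from 863 to 14835 on knockdown arrays. The part of these markers in the results below was not tested.

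SGPP1, which dephosphorylates sphingosine 1-phosphate, was lower after knockdown in every line. Its brightest probe set read 1315 on the control and 293 on the knockdown array of NB-39-nu, 1576 and 879 in SH-SY5Y, 2083 and 953 in SK-N-BE, and 833 and 287 in SK-N-DZ. The lowest of the 4 control signals (833) was below the 2 highest knockdown signals, so the groups overlapped across lines, while within each line the control was higher. SH-SY5Y kept 55.8% of its control signal, SK-N-BE 45.8%, SK-N-DZ 34.4% and NB-39-nu 22.3%. As log2 ratios of signal + 8, knockdown over control, these were -0.84, -1.12, -1.51 and -2.14, with a mean of -1.40 ± 0.56 (SD, n = 4 lines). The dimmer SGPP1 probe set was also lower in 4 of 4 lines, with ratios of -1.90 for NB-39-nu, -0.94 for SK-N-DZ, -0.41 for SH-SY5Y and -0.27 for SK-N-BE. Both probe sets put NB-39-nu first and SK-N-DZ next, but in SK-N-BE the dimmer one retained 82.4% of control where the brighter one retained 45.8%. In a culture, fewer cells with the transcript and less transcript per cell cannot be told apart.

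**Figure D1:**
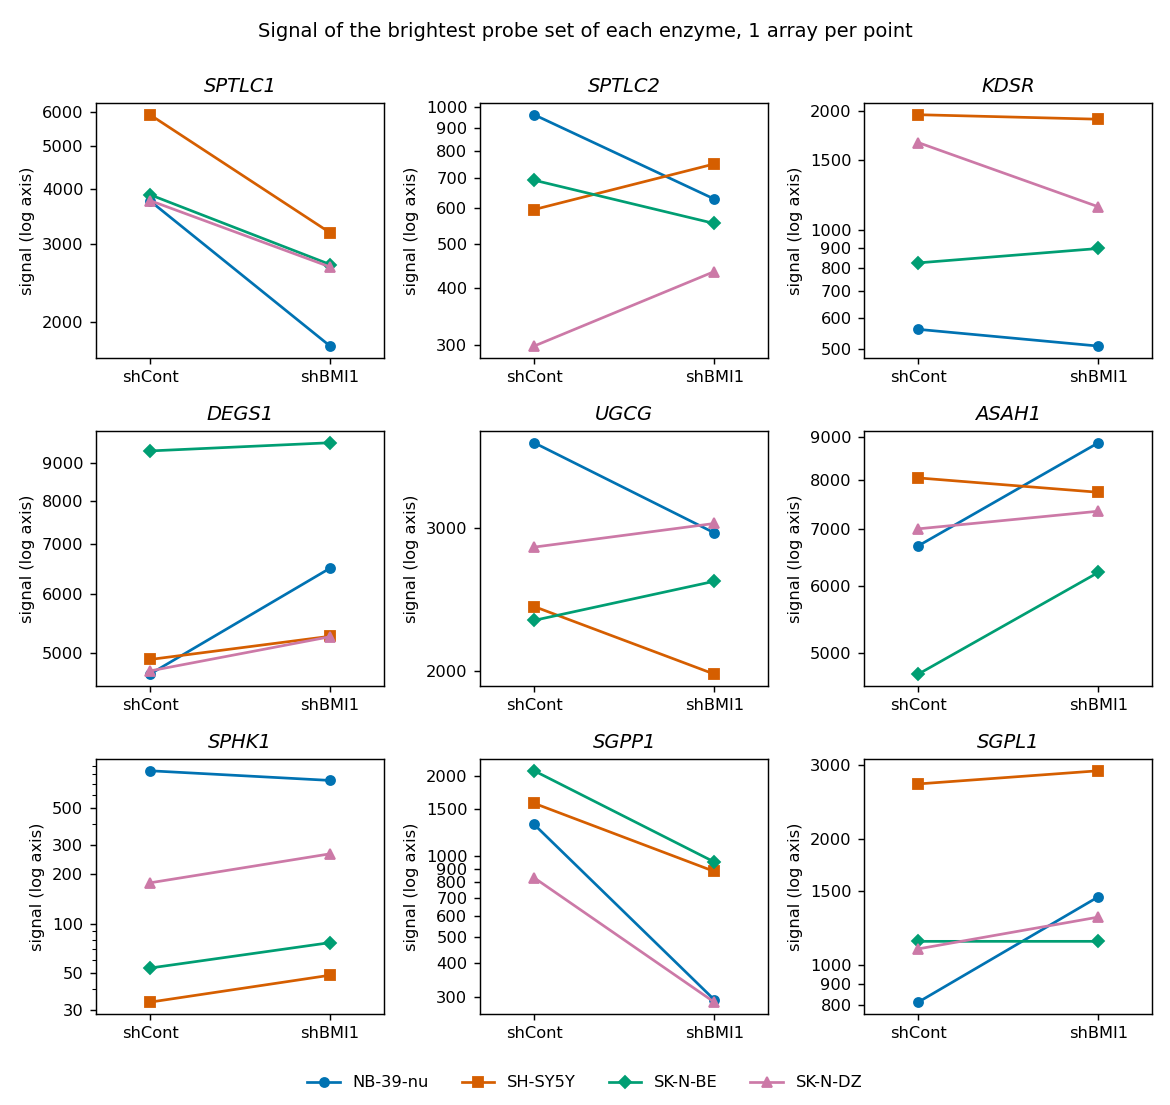
Signal of the brightest probe set of 9 enzymes on a log axis, with 1 array per point and a line joining the shCont and shBMI1 array of each cell line. The SGPP1 and SPTLC1 lines descend in all 4 cell lines, while those of SPTLC2 and UGCG cross.

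SPTLC1, the subunit that pairs with SPTLC2 to form serine palmitoyltransferase, was lower in every line by its brightest probe set. It read 3763 and 1762 (control and knockdown) in NB-39-nu, 5902 and 3185 in SH-SY5Y, 3886 and 2698 in SK-N-BE, and 3769 and 2664 in SK-N-DZ. All 4 control signals were above all 4 knockdown signals. The log2 ratios were -1.09, -0.89, -0.53 and -0.50 in that order of lines, with a mean of -0.75 ± 0.29 (SD, n = 4 lines). One dimmer probe set was lower in 4 of 4 lines, at a mean of -0.57 ± 0.25 (SD, n = 4 lines). The other was lower in 3 lines and at 0.15 in SK-N-BE, where it read 254 and 282. SK-N-BE thus had the weakest SPTLC1 ratio on both dimmer probe sets and the second weakest on the brightest.

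The members nearest to a change of 1.5-fold (0.58 on the log2 scale) in every line lay on either side of it. By its brightest probe set SGPP1 passed that size in all 4 lines, with its smallest ratio at -0.84. The dimmer SGPP1 probe set missed it in SH-SY5Y (-0.41) and SK-N-BE (-0.27). SPTLC1, also by its brightest probe set, passed it in NB-39-nu and SH-SY5Y and missed it in SK-N-BE and SK-N-DZ.

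SPTLC2, the catalytic partner of SPTLC1, split the lines. Its brightest probe set read 964 and 629 in NB-39-nu, 596 and 751 in SH-SY5Y, 692 and 556 in SK-N-BE, and 299 and 436 in SK-N-DZ. The knockdown signal was thus lower in NB-39-nu and SK-N-BE and higher in the other two, for a mean log2 ratio of -0.02 ± 0.54 (SD, n = 4 lines). Of its other probe sets 2 passed the filter, with means of 0.04 and -0.18. These probe sets disagreed in SK-N-BE, at -0.31, 0.34 and 0.01, and in SK-N-DZ, at 0.53, -0.29 and -0.31. A probe set under the filter read 125 and 15.2 in SK-N-DZ, and 178 and 57.2 in SH-SY5Y. By the brightest probe sets, the SPTLC1 ratio lay below the SPTLC2 ratio in all 4 lines, with differences of -1.22 for SH-SY5Y, -1.03 for SK-N-DZ, -0.48 for NB-39-nu and -0.21 for SK-N-BE. Since SPTLC1 was chosen for being lower, this difference is a description.

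By brightest probe sets SPTLC1 was lower in all 4 lines and SPTLC2 only in NB-39-nu and SK-N-BE, a difference that was not tested. The sequence before the start of each partner gene is shown because the 2 subunits work as 1 enzyme. These are the 250 bases before the annotated start, from RefSeq on GRCh38.p14, both on the minus strand and written 5′ to 3′. Capitals mark matches, on either strand, to the CCAAT box (CCAAT), the ETS core (CCGGAA), the GC box (GGGCGG) and the E-box (CACGTG). SPTLC1 is at chr9:92115414-92115663 and SPTLC2 at chr14:77616638-77616887.
SPTLC1: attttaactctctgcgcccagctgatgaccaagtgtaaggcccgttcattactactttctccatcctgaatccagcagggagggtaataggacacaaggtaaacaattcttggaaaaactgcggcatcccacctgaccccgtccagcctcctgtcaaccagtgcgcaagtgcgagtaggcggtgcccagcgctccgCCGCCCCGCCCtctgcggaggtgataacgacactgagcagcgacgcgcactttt
SPTLC2: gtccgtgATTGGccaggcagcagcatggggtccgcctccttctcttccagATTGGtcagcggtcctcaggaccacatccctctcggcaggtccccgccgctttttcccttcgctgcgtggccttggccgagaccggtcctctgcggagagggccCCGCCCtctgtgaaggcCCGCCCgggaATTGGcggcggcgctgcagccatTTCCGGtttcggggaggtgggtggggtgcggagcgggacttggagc
SPTLC1 held 2 GC boxes, which share 1 base, and none of the other motifs. SPTLC2 held 2 GC boxes, 3 CCAAT boxes and 1 ETS core. Among 35116 windows of the same length, 42.6% held a GC box, 32% a CCAAT box, 14.5% an ETS core and 6.34% an E-box. The G and C content was 56.4% for SPTLC1 and 68.4% for SPTLC2, against a median of 58.0% over all windows. These matches are letters in the reference and not measured binding. Of the 10 enzymes, 8 had an entry in the table, and SGPP1 and ASAH1 had none.

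KDSR, which carries out the reduction after serine palmitoyltransferase, changed little by its brightest probe set. It read 560 and 508 in NB-39-nu, 1952 and 1902 in SH-SY5Y, 824 and 897 in SK-N-BE, and 1660 and 1142 in SK-N-DZ. The mean log2 ratio was -0.15 ± 0.28 (SD, n = 4 lines), and SK-N-DZ at -0.54 was the only line beyond 0.14 in size. The second KDSR probe set was lower in 4 of 4 lines, from -0.14 in SK-N-BE to -0.44 in SK-N-DZ (mean -0.29 ± 0.13, SD, n = 4 lines; limma adjusted p = 0.617 over probe sets). Another, under the filter, was also lower in 4 of 4, at a mean of -0.66. The dimmest, also under the filter, was lower in 2 lines and higher in 2, at a mean of 0.39.

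DEGS1, the desaturase that completes ceramide, was slightly higher on each knockdown array. It read 4678 and 6495 in NB-39-nu, 4894 and 5260 in SH-SY5Y, 9340 and 9581 in SK-N-BE, and 4724 and 5252 in SK-N-DZ. The log2 ratio was 0.47 in NB-39-nu and between 0.04 and 0.15 in the other lines. The second DEGS1 probe set did not repeat the pattern, with 0.05 in NB-39-nu and -0.28 in SK-N-BE.

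UGCG, which makes glucosylceramide, was lower in NB-39-nu and SH-SY5Y and higher in SK-N-BE. The brightest probe set read 3817 and 2956 in NB-39-nu, 2399 and 1980 in SH-SY5Y, 2306 and 2577 in SK-N-BE, and 2839 and 3036 in SK-N-DZ. Its 3 probe sets gave these same directions in NB-39-nu (-0.37, -0.60 and -1.11), SH-SY5Y (-0.28, -0.48 and -0.78) and SK-N-BE (0.16, 0.35 and 1.11). They were at 0.10, 0.06 and -0.28 in SK-N-DZ. The probe sets thus differed in size more than in direction, and each line is 1 array pair.

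ASAH1, the lysosomal ceramidase, tended upward outside SH-SY5Y. Its brightest probe set read 6692 and 8860 in NB-39-nu, 8051 and 7742 in SH-SY5Y, 4719 and 6226 in SK-N-BE, and 7009 and 7353 in SK-N-DZ. That probe set is of a type (x_at) whose probes can bind other transcripts. Another was higher in 4 of 4 lines, reading 1072 and 1702 in NB-39-nu, 1241 and 1428 in SH-SY5Y, 772 and 1054 in SK-N-BE, and 1177 and 1625 in SK-N-DZ. Its mean of 0.44 ± 0.19 (SD, n = 4 lines) had an unadjusted limma p of 0.0069 and an adjusted p of 0.442 over 16544 probe sets, of which 1 passed (0.00604%). Means of 0.24 and 0.08 were found for the remaining ASAH1 probe sets that passed the filter.

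Sphingosine 1-phosphate is made by SPHK1, which was bright in 1 line only. It read 839 and 734 in NB-39-nu, 176 and 264 in SK-N-DZ, 53.9 and 76.8 in SK-N-BE, and 33.5 and 48.8 in SH-SY5Y. In SH-SY5Y both signals were below the table median of 75, and in SK-N-BE the control was. The knockdown array was higher in the 3 dimmer lines, by 0.45 to 0.56 on the log2 scale, and at -0.19 in NB-39-nu (mean 0.32 ± 0.34, SD, n = 4 lines). SGPL1, which cleaves sphingosine 1-phosphate, read 815 and 1453 in NB-39-nu, 2702 and 2905 in SH-SY5Y, 1138 and 1138 in SK-N-BE, and 1092 and 1300 in SK-N-DZ. NB-39-nu, at 0.83, was the only line past 1.5-fold. The second SGPL1 probe set gave 0.52 in NB-39-nu and -0.18 in SH-SY5Y.

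Counted over brightest probe sets, 2 of the 8 tested enzymes were lower in all 4 lines (SGPP1 and SPTLC1, the ones that chose the group), where 7.65% of all 9888 tested genes were. Higher in all 4 lines were 2 of 8, SGPL1 and DEGS1, against 10.6% of all genes. SGPL1 is in that count with a difference in SK-N-BE that rounds to 0.00. Within NB-39-nu, SGPP1, SPTLC1 and SPTLC2 were at least 1.5-fold lower (8.5% of all genes) and SGPL1 at least 1.5-fold higher (12.9%). SGPP1 and SPTLC1 were at least 1.5-fold lower in SH-SY5Y (3.8%), and SGPP1 alone in SK-N-DZ (4.39%) and SK-N-BE (3.35%). No tested enzyme was 1.5-fold higher in these 3 lines, where between 4.32% and 4.88% of genes were (4.8% in SK-N-BE). SGPP1, which had been chosen for being lower, was 1 of 6 genes at least 1.5-fold lower in all 4 lines (0.0607%). No enzyme was among those at least 1.5-fold higher in all 4 (0.0202%). Over probe sets above the filter, 5 of 21 were lower in all 4 lines, 4 of them of SGPP1 and SPTLC1 and 1 of KDSR, against 8.03% of all such probe sets. Higher in all 4 were 3 of 21, against 9.68%. Since SGPP1 and SPTLC1 were chosen for being lower, their places in these counts are descriptions.

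The test of the knockdown over lines was a limma fit with cell line as a block, adjusted over all 9888 genes, where 1 gene passed at 0.05 (0.0101%). None of the 6 tested enzymes other than SGPP1 and SPTLC1 passed it. At an unadjusted limma p under 0.05 there were also 0 of 6, where 9.33% of all tested genes were. The closest were SGPL1 at 0.30 ± 0.37, DEGS1 at 0.19 ± 0.19 and ASAH1 at 0.20 ± 0.23 (SD, n = 4 lines), with limma adjusted p of 0.592, 0.597 and 0.593. KDSR, UGCG and SPTLC2 had limma adjusted p of 0.765, 0.836 and 0.986. Of these 6 enzymes 3 were higher and 3 lower in the mean, where 56.5% of all tested genes were higher. Their median was 0.09, beside 0.03 over all tested genes. Nothing in the labels says that arrays of a line were independent cultures.

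**Figure D2:**
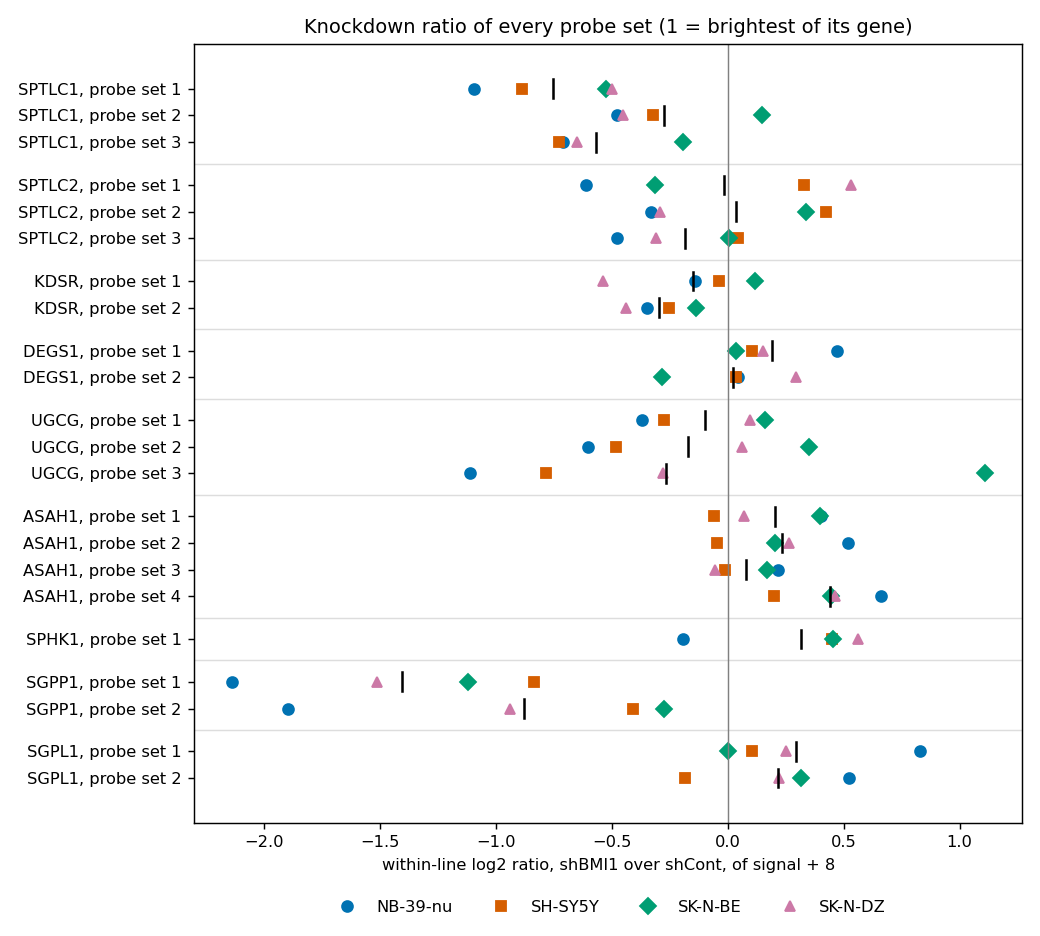
Log2 ratio of signal + 8, shBMI1 over shCont, for the 21 probe sets above the filter and the SPHK1 probe set, with 1 symbol per cell line and a black bar at the mean of the 4 lines. Both SGPP1 probe sets lie left of 0 in all lines, whereas the 3 SPTLC2 probe sets and the 3 UGCG probe sets straddle it.

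The enzymes also differed in level between the lines, and differences in level did not enter their choice. It was tested with limma's F-test over the 4 lines in a model with line and condition, each line having 2 arrays. The spread in that test is the unevenness of the knockdown response between lines, because a line has no replicate within a condition. For SGPP1 and SPTLC1 that response had been seen when the group was chosen, so their line tests are not independent of the choice. By brightest probe sets all 8 tested enzymes passed (adjusted p from 2.3e-04 to 0.0341), but so did 79.9% of all genes. In the F-test over probe sets, a dimmer ASAH1 and a dimmer UGCG probe set did not pass (limma adjusted p = 0.204 and 0.356). Of the 48 pairwise line contrasts of the 8 enzymes, by brightest probe sets, 21 passed, or 43.8%, against 48.9% over all genes. By pair of lines that background was 49.8% for NB-39-nu and SH-SY5Y, 50.6% for SH-SY5Y and SK-N-DZ, 49.9% for SK-N-BE and SK-N-DZ, 48.5% for SH-SY5Y and SK-N-BE, and 47.2% for NB-39-nu with either SK-N line.

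By brightest probe sets KDSR varied most among the tested enzymes, with a 3.57-fold range of its line means. SH-SY5Y was highest, then SK-N-DZ, SK-N-BE and NB-39-nu, and the steps between neighbours were 0.48, 0.67 and 0.68 on the log2 scale (SE 0.20 each). The first step did not pass (limma adjusted p = 0.0735), and the other two did (0.021 and 0.0203). The second KDSR probe set gave the same order over a 5.82-fold range. The second UGCG probe set spanned 4.56-fold and the dimmer SGPP1 probe set 3.67-fold.

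SGPL1 separated SH-SY5Y from the rest. Its line mean there was 2.34-fold that of SK-N-DZ, the next line (limma adjusted p = 0.00176), while SK-N-DZ, SK-N-BE and NB-39-nu lay within 0.13 of each other with no pair passing. DEGS1 separated SK-N-BE in the same way, 1.72-fold above NB-39-nu (limma adjusted p = 0.00208), with NB-39-nu, SH-SY5Y and SK-N-DZ not told apart. The second probe sets of SGPL1 and DEGS1 had the same highest line.

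SGPP1 was highest in SK-N-BE and SH-SY5Y, which did not differ beyond their spread (0.26 apart, limma adjusted p = 0.490), and lower in NB-39-nu and SK-N-DZ, which also did not (0.34 apart, adjusted p = 0.357). The step between the pairs was 0.91 (SE 0.29, limma adjusted p = 0.0289). These are means of both arrays of a line, so the low knockdown signals of NB-39-nu and SK-N-DZ enter them. By the dimmer SGPP1 probe set the order was the same but that step was 0.68 and did not pass (limma adjusted p = 0.217), nor did NB-39-nu against SK-N-BE (0.142), so that NB-39-nu was not separated from the higher pair. On control arrays alone NB-39-nu (1315) was closer to SH-SY5Y (1576) than to SK-N-DZ (833).

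SPTLC1 was highest in SH-SY5Y by each probe set. By the brightest, only SH-SY5Y against NB-39-nu passed (0.75, SE 0.18, limma adjusted p = 0.00764). By 1 dimmer probe set SK-N-BE was lowest, and only SH-SY5Y against SK-N-BE passed (limma adjusted p = 0.0203). By the other, 4 pairs passed, with SK-N-BE 2.74-fold above NB-39-nu (limma adjusted p = 0.00228). SPTLC2, by its brightest probe set, was highest in NB-39-nu and lowest in SK-N-DZ, 2.13-fold apart (limma adjusted p = 0.014). No neighbouring lines in its order were told apart by that probe set. One of its other probe sets was instead highest in SH-SY5Y, and the other separated SK-N-BE from SK-N-DZ (0.92, limma adjusted p = 0.0195), while SK-N-DZ was lowest by all of these. UGCG ran from NB-39-nu down to SH-SY5Y over a 1.54-fold range, with that contrast alone passing (limma adjusted p = 0.0165). Its second probe set was instead brightest in SK-N-DZ, at 1932 on the control array against 889, 532 and 377 in NB-39-nu, SH-SY5Y and SK-N-BE. ASAH1 had the narrowest range, 1.46-fold, with SK-N-BE lowest.

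SPHK1 had a wider range than any tested enzyme, but only a fit without the filter could include it. NB-39-nu was at least 10.5-fold above SH-SY5Y when signals under the table median of 75 were set to that median, since the added constant of 8 shapes any exact fold of so dim a signal. The first step down, from NB-39-nu to SK-N-DZ, was 1.82 on the log2 scale (SE 0.42, limma adjusted p = 0.00845). SK-N-BE came next, with a step that passed (0.0151), and SK-N-BE and SH-SY5Y, both dim, were not told apart (0.372). In that fit 47.2% of 19776 genes passed the F-test, and SPHK1 had an adjusted p of 1.0e-04. Without NB-39-nu, the line with the highest signal, it passed at 0.0119.

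Several of these calls rested on 1 line. Without SH-SY5Y, SGPL1, SPTLC1 and UGCG no longer passed the F-test (limma adjusted p = 0.860, 0.224 and 0.0956). Without SK-N-BE, DEGS1 and ASAH1 did not (0.650 and 0.696), without SK-N-DZ SPTLC2 did not (0.528), and without NB-39-nu UGCG did not (0.0625). KDSR and SGPP1 passed with each line left out. The SGPP1 call was lost when condition was left out of the model (0.195), as was that of SPTLC1 (0.367). ASAH1 no longer passed with its probe sets averaged (0.862) or with condition left out (0.0549), and without limma's trend SPTLC1, UGCG and ASAH1 missed the threshold (0.0569, 0.0722 and 0.0874). KDSR kept its call under each alternative in which it was tested.

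**Figure D3:**
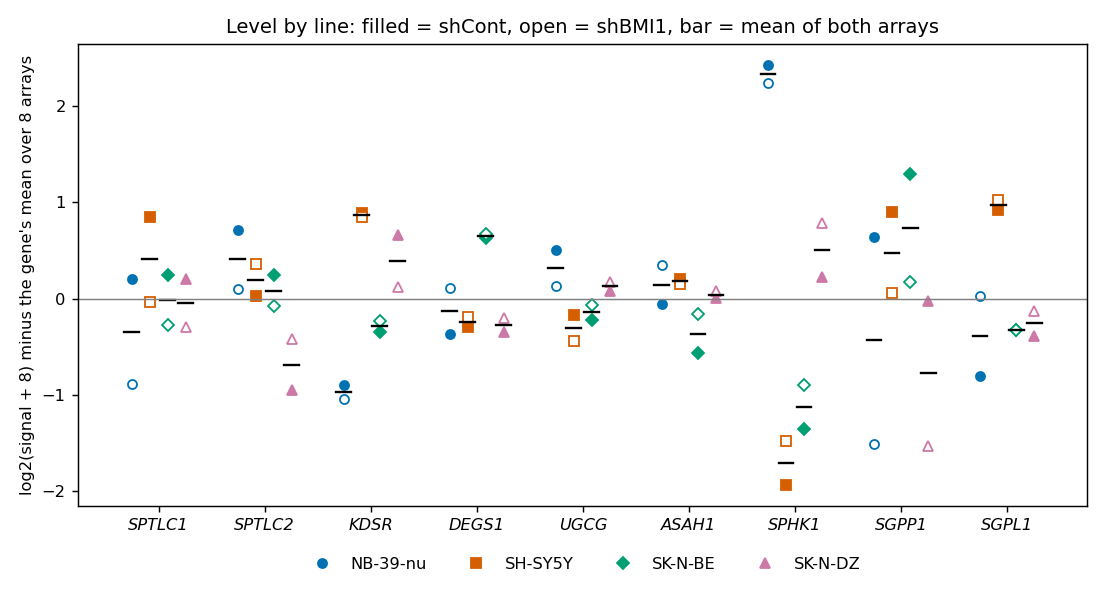
Log2(signal + 8) of the brightest probe set minus the gene's own mean over the 8 arrays, for 9 enzymes, with shCont filled, shBMI1 open and a bar at the mean of the 2 arrays of a line. SPHK1 in NB-39-nu stands highest, SH-SY5Y leads for KDSR and SGPL1, and SK-N-BE leads for DEGS1.

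The remaining genes of the pathway were taken from 6 lists with 68 genes, of which 60 had a probe set and 36 were tested. In the knockdown fit 0 of 36 passed in either direction. At an unadjusted p under 0.05 limma gave 1 higher and 2 lower, or 3 of 36, where it gave 9.33% of all genes. The mean log2 ratio was above 0 for 20 (55.6%, against 56.5% of all tested genes) and below 0 for 16, with a median of 0.05, beside 0.03 over all tested genes. In all 4 lines 4 were lower (CERS2, SGMS1, SAMD8 and CERK), or 11.1% against 7.65% of all genes. Higher in all 4 were 3 (ORMDL3, ABCC1 and ST6GALNAC6), or 8.33% against 10.6%, so both shares were near the background.

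Among 7 tested genes of de novo ceramide synthesis, 3 were higher (42.9%, against 56.5% of all tested genes) and 4 lower in the mean. The ceramide synthases CERS5 and CERS6 marked the ends, at 0.25 ± 0.24 and -0.25 ± 0.27 (SD, n = 4 lines). ORMDL3, one of the proteins that restrain serine palmitoyltransferase, was at 0.24 ± 0.14, while its relatives ORMDL1 and ORMDL2 were at 0.09 and -0.12. SPTSSA, a small subunit that stimulates the same enzyme, was at -0.08.

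Of 4 tested genes of sphingomyelin synthesis and ceramide transfer, 1 was higher and 3 lower in the mean, where 56.5% of all tested genes were higher. SAMD8, which makes ceramide phosphoethanolamine, was lowest of all 36 at -0.61 ± 0.23 (SD, n = 4 lines; limma adjusted p = 0.306). It read 1235 and 648 in NB-39-nu, 2126 and 1509 in SH-SY5Y, 1354 and 860 in SK-N-BE, and 905 and 690 in SK-N-DZ, so each line was lower after knockdown while the groups overlapped. SGMS1, a sphingomyelin synthase, was at -0.35 ± 0.19. SMPD1, the acid sphingomyelinase, had the highest mean at 0.40 ± 0.98, with 1.53 in NB-39-nu and -0.87 in SK-N-DZ.

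The 4 tested genes of ceramide and sphingosine phosphate turnover ran from CERK to ACER3. CERK, which phosphorylates ceramide, was at -0.38 ± 0.40 (SD, n = 4 lines; limma adjusted p = 0.511), with -0.96 in NB-39-nu and -0.03 in SK-N-BE. ACER3, an alkaline ceramidase, was at 0.06 ± 0.44. Of the sphingosine 1-phosphate receptors only S1PR2 and S1PR3 were bright enough to test. S1PR2 was at -0.33 ± 0.64, carried by NB-39-nu (320 and 129), and S1PR3 at -0.24 ± 0.40. ABCC1, a transporter that can export sphingosine 1-phosphate, was at 0.21 ± 0.14 and higher in 4 of 4 lines.

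Of 10 tested genes of glycosphingolipid and ganglioside synthesis, 8 were higher in the mean and 2 lower, where 56.5% of all tested genes were higher, and the list's median was 0.10. B4GALNT1, the synthase of the gangliosides GM2 and GD2, was highest at 0.67 ± 0.50 (SD, n = 4 lines; limma adjusted p = 0.494). It read 205 and 429 in NB-39-nu, 281 and 270 in SH-SY5Y, 156 and 275 in SK-N-BE, and 186 and 362 in SK-N-DZ, higher in 3 lines and level in SH-SY5Y. UGT8, which makes galactosylceramide, was lowest at -0.26 ± 0.46. Among 8 tested genes of lysosomal breakdown 6 were higher in the mean, from the sialidase NEU1 at -0.16 ± 0.48 to GALC, which degrades galactosylceramide, at 0.45 ± 0.83. The widest GALC ratio was that of SK-N-DZ, from dim signals of 3.07 and 24.7. Without SK-N-DZ the GALC mean was 0.08, and over all lines it was 0.14 with the table median as pseudocount and 0.73 with a pseudocount of 1.

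**Figure D4:**
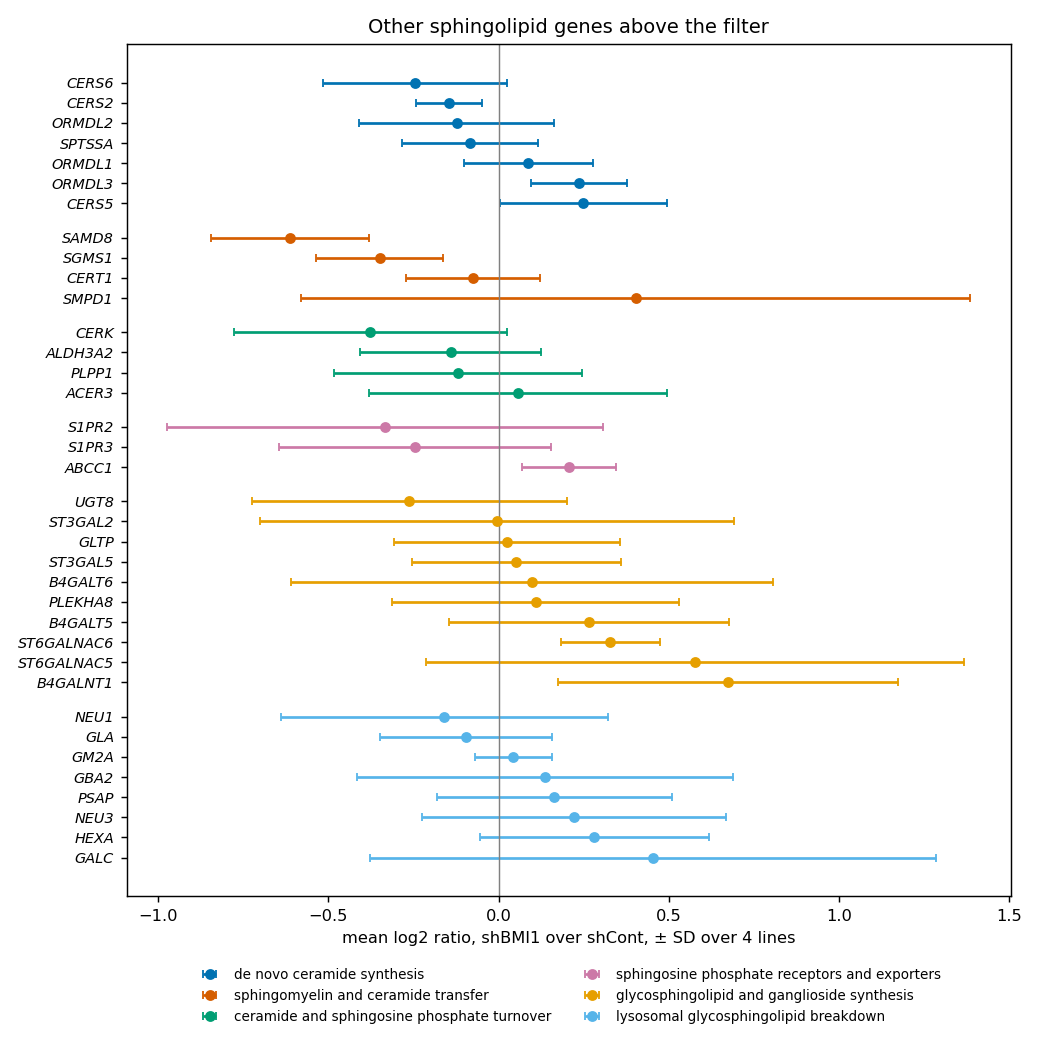
Mean log2 ratio of signal + 8, shBMI1 over shCont, with SD over 4 lines as the bar, for the 36 tested sphingolipid genes of the 6 lists in colour. SAMD8 at -0.61 and B4GALNT1 at 0.67 are the ends, and 0 of the 36 passed the limma test over all genes.

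Between lines, 27 of these 36 genes passed the F-test, or 75%, against 79.9% of all genes. GALC read 645 on the control array of NB-39-nu, 1702 in SH-SY5Y and 2158 in SK-N-BE, but 3.07 in SK-N-DZ. With signals under the table median set to that median, NB-39-nu, the next lowest line, was at least 10.4-fold above SK-N-DZ (limma adjusted p = 1.9e-05 in the fit). UGT8, at the opposite end of galactosylceramide metabolism, read 1999 on the control array of SK-N-DZ and 1869 on that of SH-SY5Y, but 142 for NB-39-nu and 21.5 for SK-N-BE. The step from SK-N-DZ to NB-39-nu was 3.91 on the log2 scale (limma adjusted p = 2.5e-05). S1PR3 read 28.6 on the control array of SK-N-DZ, against 750 for SH-SY5Y, 1161 for SK-N-BE and 2373 for NB-39-nu. S1PR3 was chosen after its values were seen.

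The genes whose 4 within-line ratios lay nearest to those of SGPP1 were ARMC1, BMI1 and BLOC1S6, by root mean square distance over the 4 lines (0.29, 0.29 and 0.38 on the log2 scale). BMI1, the hairpin's target, had ratios of -2.02 for NB-39-nu, -1.34 for SK-N-DZ, -0.62 for SK-N-BE and -0.61 for SH-SY5Y. ARMC1 followed with -2.27, -1.30, -0.83 and -0.41 in that order of lines. By the brightest probe set of each gene, SGPP1, ARMC1 and BMI1 all had NB-39-nu lowest and SK-N-DZ next, then SK-N-BE and last SH-SY5Y. For BMI1, SK-N-BE and SH-SY5Y were nearly level, and the dimmer SGPP1 probe set had SH-SY5Y (-0.41) below SK-N-BE (-0.27). These genes were picked for closeness to the SGPP1 ratios, so the shared order is a description. BLOC1S6, which acts in the making of lysosome-related organelles, was flatter, with -1.46, -1.30, -1.37 and -0.86. It was the single gene past the threshold in the knockdown fit.

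Nearest to SPTLC1 were CCDC47, ZNF580 and HAX1, at distances of 0.17, 0.17 and 0.19. CCDC47, a protein of the endoplasmic reticulum, was at -0.63 in SH-SY5Y, -0.45 in SK-N-DZ, -0.70 in SK-N-BE and -1.0 in NB-39-nu. ZNF580 was at -1.16, -0.38, -0.36 and -1.05 in that order of lines, and HAX1 at -0.61, -0.46, -0.40 and -0.87. SGPP1 and SPTLC1 were 0.79 apart, SPTLC1 ranking 35 by distance from SGPP1 but SGPP1 ranking 3299 by distance from SPTLC1. All these distances come from the same 8 arrays and are descriptions.

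**Figure D5:**
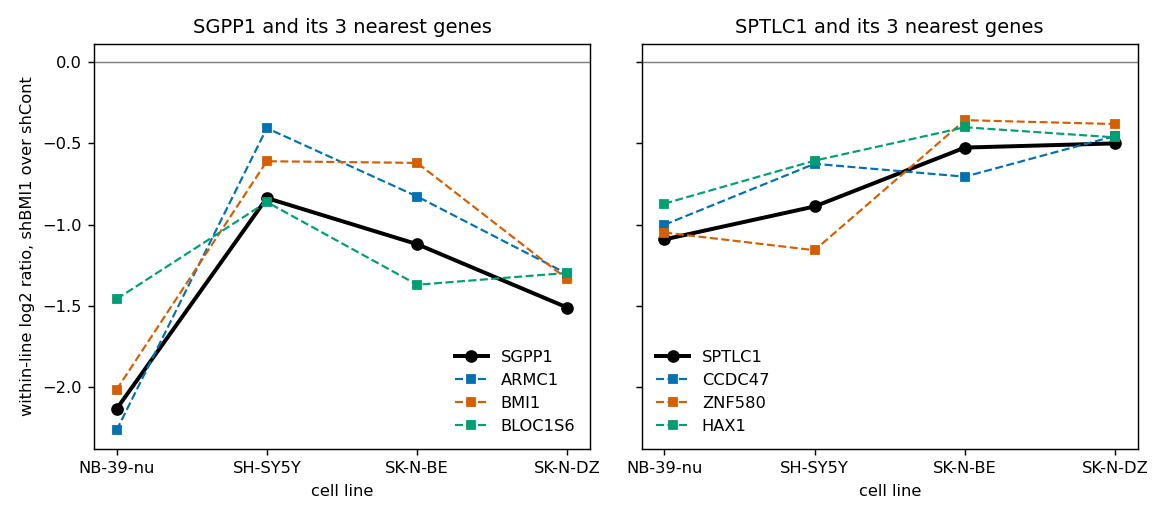
Within-line log2 ratio, shBMI1 over shCont, of SGPP1 (left) and SPTLC1 (right) in black and of the 3 tested genes nearest to each in colour, by cell line. SGPP1 and its 3 neighbours are lowest in NB-39-nu, as are SPTLC1, CCDC47 and HAX1, while ZNF580 is lowest in SH-SY5Y. SPTLC1 and its neighbours lie between -1.16 and -0.36 in every line.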

How the data were processed

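For each sample the authors deposited 1 linear intensity per probe set. Per the submitters' processing notes they were made with GCOS and MAS5, with no version given, and the trimmed mean, leaving out 2% at each end, was 500.0 on every array. Of 54675 probe sets, 41097 named 1 gene and 1801 several, which were left out except the BMI1 probe set. Symbols were updated through the RefSeq gene table of GRCh38.p14.

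Signals were taken as log2(signal + 8), and each gene took the probe set of highest mean. For genes above the median, lmFit and eBayes with trend were run (R 4.3.3, limma 3.58.1) and p-values adjusted by Benjamini-Hochberg at 0.05. The knockdown fit had cell line as a block, since the labels name the line of each array. The line fit had condition as covariate, and the 6 pairwise contrasts were adjusted together. The functions were tested on simulated data. Named genes were the 10 enzymes, the ends of each pathway list, genes changed by 1.5-fold in all 4 lines, BMI1, and the 3 genes nearest to SGPP1 and SPTLC1, and any other gene is an example. Members and lists were chosen with earlier results of these data known.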

Additional observations from a re-analysis of the deposited data

Results flagged for a closer look

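Dixon's gap rule for groups of 4 was applied to the ratios and control levels of 22 probe sets, 44 groups in all, and chance flags about 1 group in 20. It marked 5 values. SH-SY5Y stood apart in the control level of SPTLC1 (12.53 on the log2 scale, others 11.88 to 11.93), and SK-N-BE in that of DEGS1 (13.19, others 12.19 to 12.26). SK-N-DZ stood apart in the control level of the dimmer SGPP1 probe set (6.93, others 8.4 to 8.48). Among the knockdown ratios, SK-N-BE was weaker for a dimmer SPTLC1 probe set (-0.19, others -0.73 to -0.65), and NB-39-nu was at -0.19 for SPHK1, where the others were at 0.45 to 0.56. The fall of SPTLC1 was known when the group was chosen, so the flag on its ratio is a description and not a test.

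The dimmest tested UGCG probe set was at least 2-fold lower in NB-39-nu (-1.11) and at least 2-fold higher in SK-N-BE (1.11). That difference between lines was not tested, since each is 1 array pair.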

How the results depend on the processing

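No tested enzyme other than SGPP1 and SPTLC1, which were not put to the knockdown test, and no other pathway gene passed it under any alternative run. The number of genes passing the knockdown fit was 1, and it was 2 with a pseudocount of the table median, with no filter, with a filter at the 75th percentile and with quantile normalization. It was 0 without the trend, with all probe sets of a gene averaged, and without the cell line as a replicate block (no replicate block), and from 0 to 2 with 1 line left out. With every probe set on its own, added after seeing the data, it was 1. In the line fit without the trend, 5 of 8 enzymes passed, as did 7620 of 9888 genes. With the condition left out it was also 5 of 8 enzymes, beside 7699 of 9888 genes. With the filter at the 75th percentile, where fewer genes were tested, 5 of 5 enzymes and 4322 of 4944 genes passed. With 1 line left out, 5 to 7 of 8 enzymes passed, beside 6422 to 7606 of 9888 genes. The SPTLC2 mean changed sign without NB-39-nu (0.18) and without SK-N-BE (0.08), within a range of -0.20 to 0.18 with 1 line left out, and ACER3 with the mean of all probe sets (-0.22) and without NB-39-nu (-0.15). The cause was not tested. Dim signals limit SPHK1 in SH-SY5Y and SK-N-BE, and 1 array per line and condition limits every ratio.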
